A study of Mus musculus with 15 samples.

Results

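The genes described here are 10 components of tumour necrosis factor (TNF) signalling, the ligand genes Tnfsf9, Tnfsf12, Tnfsf13 and Tnfsf13b, the receptor genes Tnfrsf1a and Tnfrsf1b, the adaptor gene Traf1, and the regulators Tnfaip3, Tnip1 and Tnip3. They were matched by symbol to the gene identifiers of the deposited count table, and all 10 were among its 19456 genes and among the 15802 that passed the filter on low counts. They were chosen by name with their levels in all 4 populations of the study known, so that their levels, and the differences between populations, are given as a description without p-values. RNA sequencing had been performed on Ly6Chi monocytes from peripheral blood and on 3 macrophage populations of the small intestine, named for surface staining of the apoptotic cell receptor Tim-4 and of CD4. These were Tim-4-CD4- cells, called double-negative below, Tim-4-CD4+ cells, called single-positive, and Tim-4+CD4+ cells, called double-positive. All cells were sorted by FACS from wild-type C57BL/6 mice, male and 8 to 10 weeks old. The gut macrophages were gated as CD64+ and MHCII+ after exclusion of cells stained for TCRβ, B220, Ly6G, Siglec F or Ly6C, and without a gate on CD11c. The comparison addressed how intestinal macrophages that differ in these 2 surface proteins differ in gene expression from each other and from blood monocytes. There were 3 monocyte libraries, each from 3 or 4 pooled mice, and 4 libraries of each macrophage population, each from 3 pooled mice, which means that the spread between libraries is that between pools. Whether libraries of different macrophage populations came from the same pools was not given in the sources used here, and the main comparisons do not pair them. The gut macrophages had been released from the tissue by enzymatic digestion at body temperature, whereas the monocytes came from blood without digestion.

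TNF superfamily ligands are trimeric proteins that are shed or held at the cell surface, and they bind receptors of a matching superfamily. TNF itself binds TNFR1, encoded by Tnfrsf1a and carrying a death domain, and TNFR2, encoded by Tnfrsf1b, which lacks one and recruits TRAF adaptors directly. Both receptors can activate the transcription factor NF-kB, and NF-kB in turn induces inhibitors of the pathway, among them A20, the ubiquitin-editing enzyme encoded by Tnfaip3. The ABIN proteins encoded by Tnip1 and Tnip3 bind A20 and ubiquitin chains and limit NF-kB activation. Intestinal macrophages are known for producing TNF at steady state while responding weakly to microbial stimuli.

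Library totals ran from 39388763 to 151510641 counts, with a median of 63249039, and levels below are counts per 1000000 counts of the library (CPM), with library totals scaled by the trimmed mean of M values (TMM). Means are given ± SD over 3 monocyte libraries or 4 libraries of a macrophage population, and differences as log2 fold ± SE from 1 model of all 15 libraries. Timd4, the gene of Tim-4, was at 336 to 389.9 CPM in double-positive macrophages and at most 4.47 in any other library. Cd4 was at 14.5 to 39.2 CPM in double-negative macrophages, 484 to 598 in single-positive and 752 to 924 in double-positive macrophages. Ly6c2 was at 820.0 to 1545 CPM in monocytes and at most 3.46 in a macrophage library. Fcgr1, encoding CD64, was found in every library, at 177 CPM or more. H2-Ab1, encoding an MHC class II chain, was at 70.5 to 216 CPM in monocytes and at 10521 or more in macrophages.

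Among the ligands, Tnfsf9, which encodes 4-1BB ligand, a costimulatory molecule for T cells that is also found on myeloid cells, was at its highest level in double-negative macrophages. Its level was 2.35, 2.08 and 2.77 CPM in the monocyte libraries, 28.2, 31.3, 28.4 and 19.4 CPM in double-negative, 8.01, 6.17, 10.2 and 5.25 CPM in single-positive and 5.06, 5.17, 6.74 and 4.06 CPM in double-positive macrophages, in the order of replicates 1 to 4. Every double-negative library was above every other library, every macrophage library was above every monocyte library, and the 2 CD4+ populations overlapped. The mean was 26.8 ± 5.18 CPM in double-negative against 7.40 ± 2.18 CPM in single-positive macrophages, a log2 fold of -1.86 ± 0.21 for the second over the first, or 3.63-fold lower. Against monocytes the log2 fold was 3.49 ± 0.25 in double-negative, 1.63 ± 0.23 in single-positive and 1.14 ± 0.23 in double-positive macrophages. Tnfsf9 lies on the plus strand of GRCm38 at chr17:57105325-57107757 and is a 3-exon gene, in GENCODE M21, whose exons share 192 bases with the antisense gene Gm11110. The nearest listed relatives are Cd70, at 38239 bases, and Tnfsf14, at 81734 bases.

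**Figure D1:**
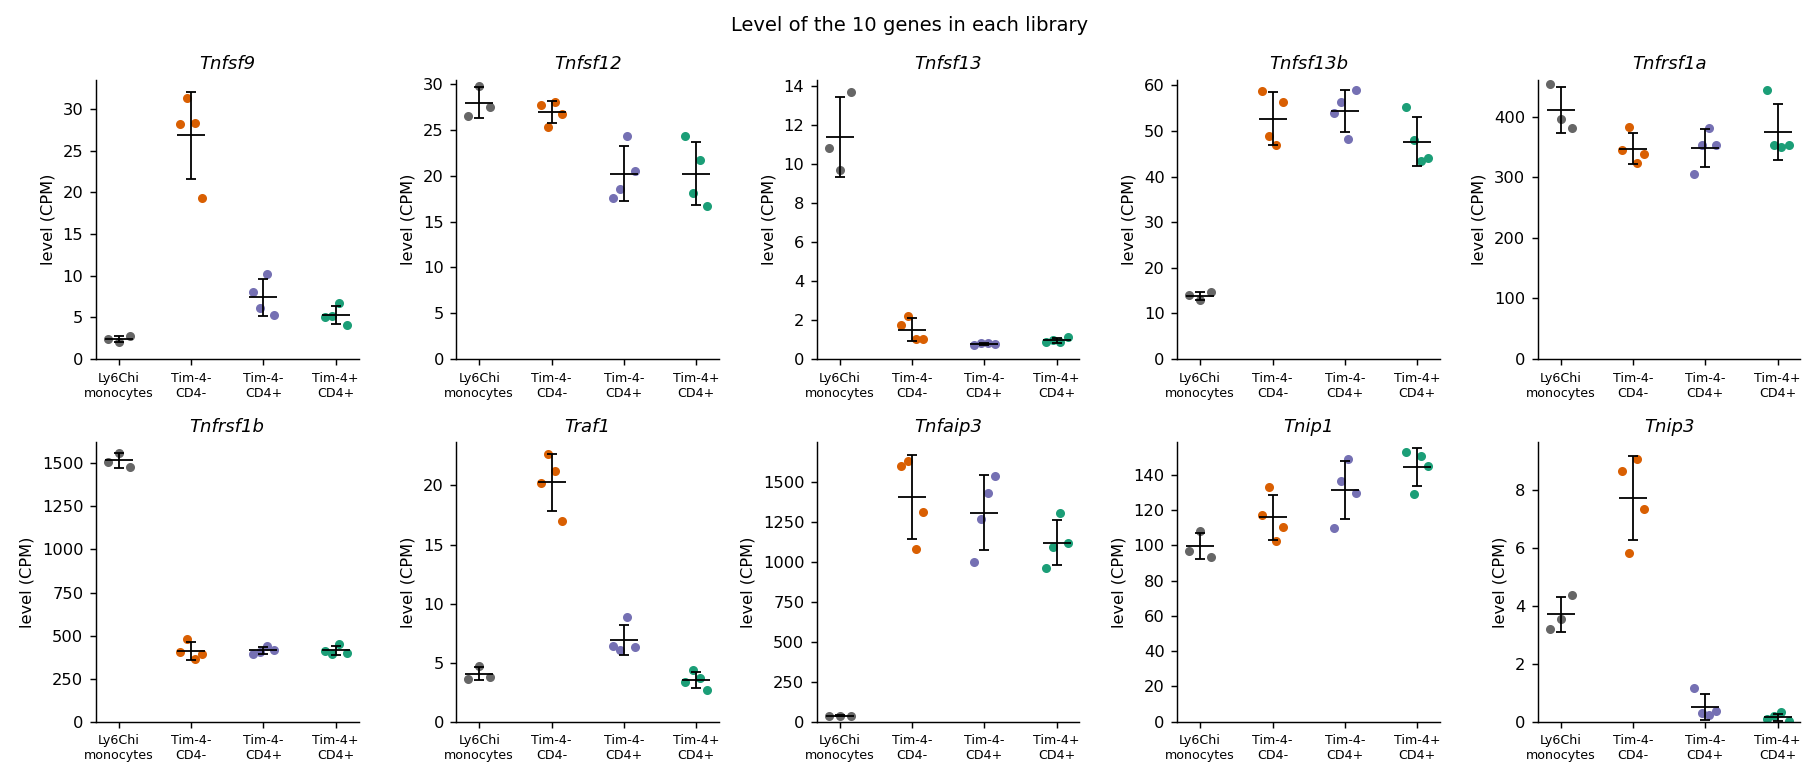
Level of each of the 10 genes in CPM (y axis, linear, from 0, a scale of its own in each panel) in each of the 15 libraries (points), by population, with black bars for the mean ± SD over 3 monocyte or 4 macrophage libraries. Tnfsf9, Traf1 and Tnip3 were highest in every Tim-4-CD4- library, Tnfaip3 and Tnfsf13b were high in all macrophage libraries, and Tnfrsf1b and Tnfsf13 in the monocyte libraries.

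Tnfsf13b encodes BAFF, a survival factor for B cells and plasma cells. It was at 14.1, 12.9 and 14.7 CPM in the monocyte libraries, 58.8, 48.8, 47.0 and 56.4 CPM in double-negative, 53.9, 56.3, 48.2 and 59.0 CPM in single-positive and 55.2, 48.0, 43.4 and 44.1 CPM in double-positive macrophages. All 12 macrophage libraries were above all 3 monocyte libraries, and the 3 macrophage populations overlapped. The log2 fold over monocytes was 1.93 ± 0.11, 1.97 ± 0.12 and 1.78 ± 0.11 in the same order, a level 3.44-fold to 3.92-fold higher, and between macrophage populations it lay between -0.19 and 0.04. The gene lies at chr8:10006467-10039072 on the plus strand, and no other gene on that strand shares its exons.

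Tnfsf13, the gene of APRIL, a relative of BAFF that binds the same plasma cell receptors BCMA and TACI, had the opposite order. It was at 10.8, 9.68 and 13.7 CPM in monocytes, 1.75, 2.21, 1.03 and 1.04 CPM in double-negative, 0.733, 0.834, 0.831 and 0.763 CPM in single-positive and 0.876, 0.964, 0.852 and 1.11 CPM in double-positive macrophages. No macrophage library reached a monocyte library, and the log2 fold over monocytes was -2.90 ± 0.25, -3.85 ± 0.26 and -3.58 ± 0.25. The macrophage values rest on 33 to 132 counts per library. Double-negative replicates 1 and 2 were above the other 10 macrophage libraries, while replicates 3 and 4 lay within the range of double-positive macrophages, whose lowest library was just above the highest of single-positive macrophages. Tnfsf12, encoding TWEAK, the ligand of the receptor Fn14, was at 26.5, 29.8 and 27.5 CPM in monocytes, 27.7, 25.3, 28.0 and 26.8 CPM in double-negative, 17.6, 18.5, 24.4 and 20.5 CPM in single-positive and 24.3, 18.2, 21.7 and 16.7 CPM in double-positive macrophages. Monocytes and double-negative macrophages overlapped, and both were above every CD4+ library, with a log2 fold of -0.41 ± 0.12 for single-positive and -0.42 ± 0.12 for double-positive over double-negative macrophages.

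These 2 ligand genes are neighbours, which limits both values. On the minus strand of chromosome 11, Tnfsf13 lies at chr11:69682846-69685784 and Tnfsf12 at chr11:69686250-69695849, 465 bases apart. The read-through gene Tnfsfm13 spans both and shares 60.0% of the exonic bases of Tnfsf13 and 48.3% of those of Tnfsf12. Reads in these shared exons could have been left out, so the counts of both genes are uncertain. Tnfsfm13 itself was at 8.25 ± 0.601 CPM in monocytes and between 0.860 and 2.47 CPM over the macrophage libraries. The antisense gene Tnfsf13os shares 221 exonic bases with Tnfsf13 on the other strand and was at 7.21 to 7.82 CPM in monocytes and at most 0.251 CPM in macrophages. The strand setting of the counting was not given in the sources used here, so that reads of Tnfsf13 and of its antisense partner cannot be told apart in the shared bases.

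Of the TNF receptors, Tnfrsf1a was at similar levels in all populations and Tnfrsf1b was higher in monocytes. Tnfrsf1b was at 1508, 1561 and 1480 CPM in monocytes, 403, 482, 365 and 394 CPM in double-negative, 394, 404, 442 and 418 CPM in single-positive and 412, 393, 452 and 397 CPM in double-positive macrophages. Every monocyte library was far above every macrophage library, and the macrophage populations overlapped throughout. Its log2 fold over monocytes was -1.88 ± 0.09, -1.87 ± 0.09 and -1.87 ± 0.09, and between macrophage populations it was 0.01 ± 0.09 for single-positive over double-negative, 0.00871 ± 0.09 for double-positive over double-negative and -0.00295 ± 0.09 for double-positive over single-positive. Tnfrsf1a was at 454, 397 and 381 CPM in monocytes, 345, 383, 324 and 338 CPM in double-negative, 305, 354, 382 and 353 CPM in single-positive and 444, 353, 349 and 353 CPM in double-positive macrophages. Libraries of all 4 populations overlapped, and the log2 folds over monocytes were -0.24 ± 0.11, -0.24 ± 0.11 and -0.13 ± 0.11.

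Per kilobase of exon, the balance of the receptors differed between blood and gut. In monocytes Tnfrsf1b was at 397 ± 10.8 CPM per kb and Tnfrsf1a at 158 ± 14.7, a ratio of 2.26, 2.67 and 2.63 in the 3 libraries. In macrophages Tnfrsf1b was the lower of the 2, and its ratio to Tnfrsf1a was 0.792, 0.855, 0.765 and 0.791 in double-negative, 0.876, 0.775, 0.787 and 0.804 in single-positive and 0.630, 0.755, 0.878 and 0.762 in double-positive macrophages. The ratio was above 1 in all 3 monocyte libraries and below 1 in all 12 macrophage libraries. Tnfrsf1a lies on the plus strand at chr6:125349362-125362484, 35476 bases from the lymphotoxin receptor gene Ltbr, and Tnfrsf1b on the minus strand at chr4:145213463-145246870, 20266 bases from Tnfrsf8.

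**Figure D2:**
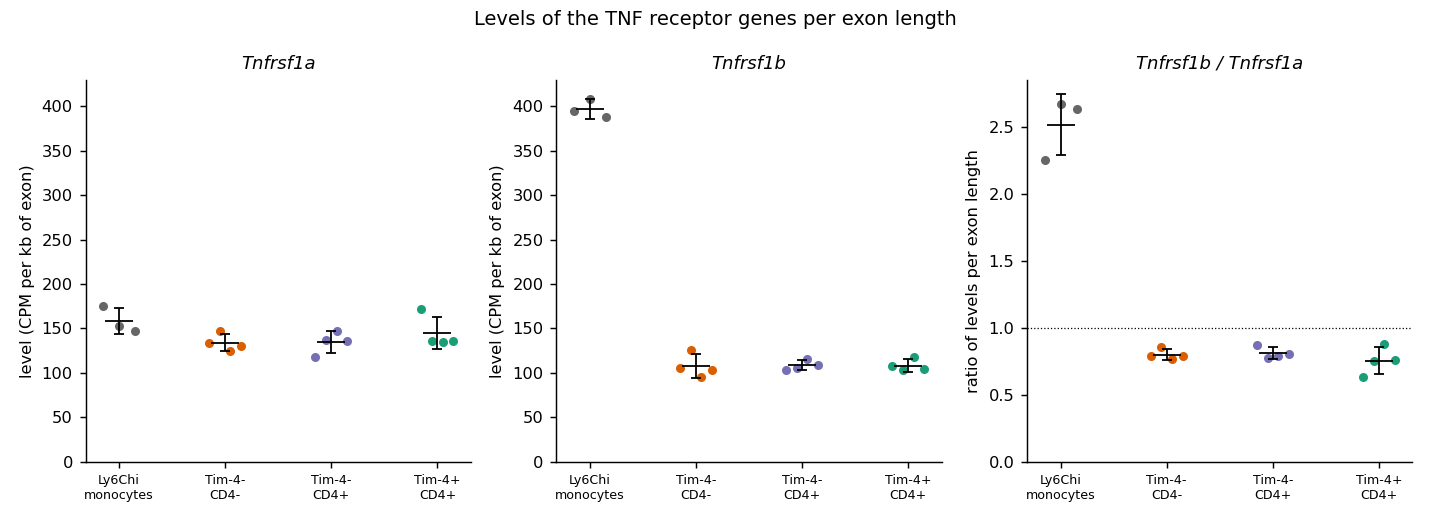
Level of Tnfrsf1a and Tnfrsf1b per kilobase of exon (left and middle, y axis in CPM per kb, the same linear scale from 0) and the ratio of Tnfrsf1b to Tnfrsf1a (right, dotted line at 1), by library (points) and population, with black bars for the mean ± SD. The monocyte libraries stand apart in Tnfrsf1b and in the ratio, at a mean ratio of 2.52 against 0.756 to 0.810 in the macrophage populations.

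Traf1, encoding an adaptor that binds TRAF2 at TNFR2 and related receptors and is itself induced by NF-kB, was the member that separated all 3 macrophage populations. It was at 3.65, 4.71 and 3.83 CPM in monocytes, 20.2, 22.6, 21.2 and 16.98 CPM in double-negative, 6.45, 6.07, 8.86 and 6.33 CPM in single-positive and 3.33, 4.41, 3.71 and 2.72 CPM in double-positive macrophages. Double-negative libraries were the highest, single-positive libraries lay between, and double-positive libraries were the lowest without overlap between these 3 populations, while the monocyte libraries overlapped those of double-positive macrophages. The log2 fold was -1.55 ± 0.16 for single-positive and -2.51 ± 0.17 for double-positive over double-negative macrophages, or 2.92-fold and 5.70-fold lower, and -0.97 ± 0.16 between the CD4+ populations. Over monocytes it was 2.32 ± 0.19 in double-negative macrophages, 0.77 ± 0.18 in single-positive and -0.19 ± 0.17 in double-positive macrophages. Double-negative replicate 4, the lowest of its population in Traf1, was also the lowest in Tnfsf9.

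Double-negative libraries were also above every other macrophage library in the summed level of 3 gene lists of other cell types. The summed level of 7 dendritic cell genes was 72.1 to 157 CPM in double-negative, 42.5 to 53.3 in single-positive, 37.4 to 52.0 in double-positive macrophages and 46.2 to 73.2 in monocytes, with all 7 genes detected above 3 counts in a library of every macrophage population. The 5 monocyte genes summed to 555 to 829.4 CPM in double-negative, 75.8 to 134 in single-positive and 14.4 to 26.1 in double-positive macrophages, against 5666 to 8350 in monocytes, with Ccr2 making up most of the sum in double-negative macrophages. The 3 mast cell genes in the table summed to 5.12 to 13.99 CPM in double-negative, 2.48 to 3.24 in single-positive and 1.15 to 2.43 in double-positive macrophages and to at most 0.0681 CPM in monocytes, most of it Kit. Levels of Traf1, Tnfsf9 and Tnip3 were lower in the monocyte libraries than in double-negative macrophages. The study proposed that double-negative cells, alone among the gut subsets, could hold some macrophages that are less mature. The gate on CD64 serves to exclude dendritic cells. The part of dendritic cell, mast cell, monocyte or less mature macrophage transcripts in the levels of Traf1, Tnfsf9 and Tnip3 was not tested. In sorted bulk samples, fewer cells with a transcript and less of it per cell cannot be told apart.

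Tnfaip3, the gene of A20, had the largest difference between blood and gut of the 10 genes. Its level was 35.8, 38.6 and 38.2 CPM in monocytes, 1595, 1630, 1076 and 1311 CPM in double-negative, 995, 1265, 1430 and 1533 CPM in single-positive and 963, 1090, 1301 and 1118 CPM in double-positive macrophages. Each macrophage library was at least 963 CPM, no monocyte library exceeded 38.6, and the 3 macrophage populations overlapped. The log2 fold over monocytes was 5.22 ± 0.20, 5.12 ± 0.19 and 4.90 ± 0.19, a level 29.8-fold to 37.4-fold higher. A list of 10 genes that tissue digestion is known to induce, among them Fos, Egr1 and Atf3, moved in the same direction, with a sum of 699 to 915 CPM in monocytes and of 28598 to 34377, 24876 to 35265 and 24216 to 28852 CPM in the 3 macrophage populations. Digestion and the step from blood to gut cannot be told apart in this design, for Tnfaip3 or any other gene compared with monocytes.

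Tnip1, encoding ABIN-1, differed little in comparison. It was at 97.1, 108 and 93.7 CPM in monocytes, 117, 133, 103 and 111 CPM in double-negative, 110.0, 136, 149 and 129.9 CPM in single-positive and 153, 129, 151 and 145 CPM in double-positive macrophages. Monocytes overlapped double-negative macrophages and lay below both CD4+ populations, and the macrophage populations overlapped each other. The log2 fold over monocytes was 0.22 ± 0.11, 0.40 ± 0.11 and 0.54 ± 0.11.

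Tnip3, encoding ABIN-3, was found at low levels and differed most between macrophage populations. It was at 3.22, 3.54 and 4.38 CPM in monocytes, 8.67, 5.83, 9.05 and 7.32 CPM in double-negative, 1.17, 0.303, 0.217 and 0.365 CPM in single-positive and 0.0876, 0.181, 0.322 and 0.0332 CPM in double-positive macrophages. The corresponding counts were 475, 348, 420 and 283 in double-negative, 64, 12, 17 and 54 in single-positive and 9, 21, 20 and 2 in double-positive macrophages. Double-negative libraries were the highest, monocytes followed, and both CD4+ populations lay below, overlapping each other. The log2 fold was -3.93 ± 0.50 for single-positive and -5.63 ± 0.55 for double-positive over double-negative macrophages, or 15.2-fold and 49.6-fold lower. Single-positive replicate 1 held 64 counts, the most of its population, and without it the former was -4.68. Over monocytes the log2 fold was 1.06 ± 0.48 in double-negative, -2.87 ± 0.50 in single-positive and -4.57 ± 0.55 in double-positive macrophages.

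**Figure D3:**
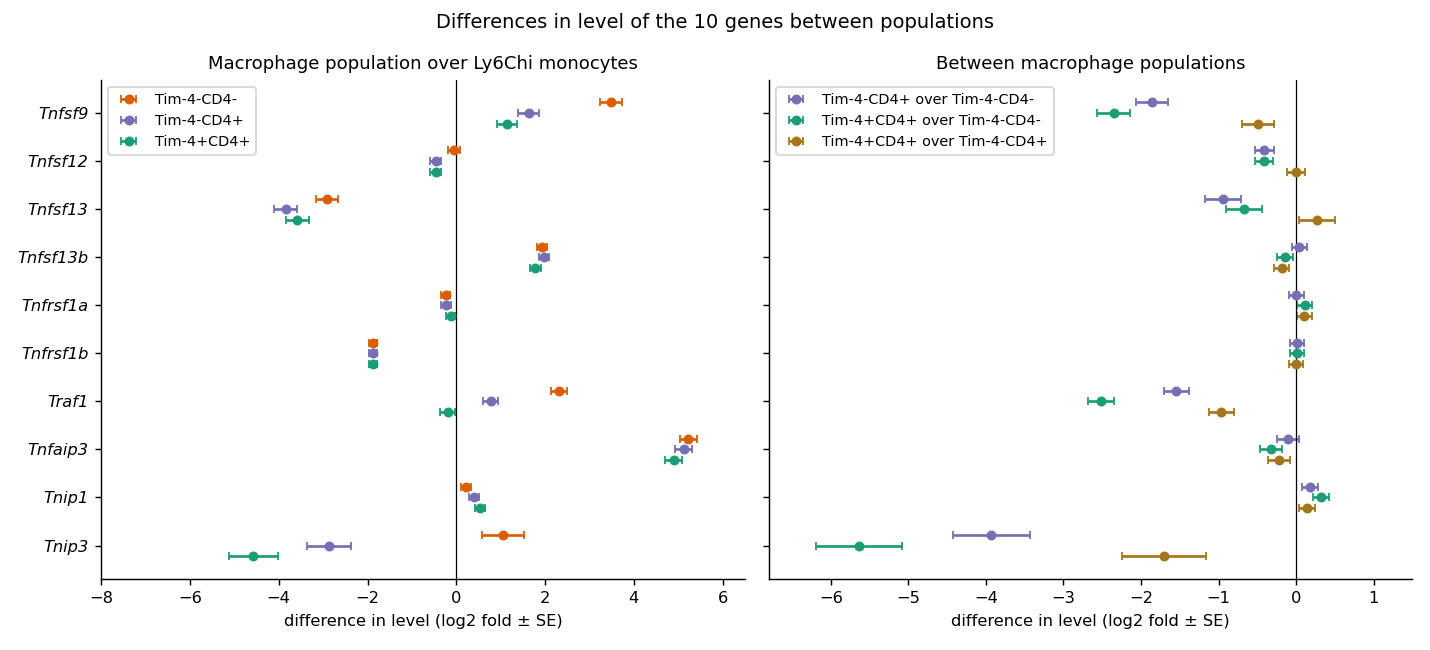
Difference in level of each of the 10 genes (y axis) as log2 fold ± SE from the model of 15 libraries (x axis), for each macrophage population over monocytes (left) and for the 3 pairs of macrophage populations (right). Tnfaip3 lies farthest to the right against monocytes, at 4.90 to 5.22, and Tnip3, Traf1 and Tnfsf9 lie farthest to the left between macrophage populations.

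The sequences before the RefSeq starts of these 3 regulators and of Traf1 are shown because the A20, ABIN and TRAF1 genes are known targets of NF-kB. Windows of 250 bases were taken from RefSeq (GRCm38.p6), 5′ to 3′ on the strand of the gene, and searched on both strands for the 10-base kappaB consensus, whose matches are in capitals. The Tnfaip3 window is chr10:19015411-19015660 on the minus strand, that of Tnip1 chr11:54962941-54963190 on the minus strand, that of Tnip3 chr6:65590148-65590397 on the plus strand, and that of Traf1 chr2:34961773-34962022 on the minus strand.
Tnfaip3: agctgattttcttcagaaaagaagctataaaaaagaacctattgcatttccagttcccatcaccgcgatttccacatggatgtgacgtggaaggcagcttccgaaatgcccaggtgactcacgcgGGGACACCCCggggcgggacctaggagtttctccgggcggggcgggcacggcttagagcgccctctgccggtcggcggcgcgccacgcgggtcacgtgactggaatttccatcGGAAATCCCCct
Tnip1: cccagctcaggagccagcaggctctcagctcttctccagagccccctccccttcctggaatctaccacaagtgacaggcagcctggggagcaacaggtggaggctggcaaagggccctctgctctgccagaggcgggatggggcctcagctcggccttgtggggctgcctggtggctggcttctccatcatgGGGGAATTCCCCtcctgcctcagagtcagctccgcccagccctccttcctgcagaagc
Tnip3: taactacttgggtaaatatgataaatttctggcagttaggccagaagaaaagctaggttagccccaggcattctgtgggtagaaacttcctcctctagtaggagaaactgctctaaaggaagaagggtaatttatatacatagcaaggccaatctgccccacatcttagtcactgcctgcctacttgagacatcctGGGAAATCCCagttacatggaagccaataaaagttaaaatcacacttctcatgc
Traf1: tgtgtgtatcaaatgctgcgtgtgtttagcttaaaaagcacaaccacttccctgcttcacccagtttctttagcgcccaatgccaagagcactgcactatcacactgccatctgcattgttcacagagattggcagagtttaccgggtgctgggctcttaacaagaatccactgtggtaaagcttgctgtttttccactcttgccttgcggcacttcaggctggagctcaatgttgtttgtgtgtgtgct

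The printed Tnfaip3 window held 2 matches, beginning 125 and 12 bases before the start, the Tnip1 window held 3 overlapping matches in 1 palindromic block that began 58 bases before it, and the Tnip3 window held 1 match, 54 bases before it. No match was found in the Traf1 window. A match was present in 8.23% of the 27025 genes with such windows, and windows were on hand for 8 of the 10 members, of which Tnfaip3, Tnip1 and Tnip3 held one. The 3 genes with a match differed in their levels, Tnfaip3 being high in all macrophages, Tnip1 nearly level and Tnip3 high in double-negative macrophages, and Traf1, with no match in this window, had an order among macrophages like that of Tnip3. A second RefSeq start of Tnfaip3, with the window chr10:19011964-19012213, had no match. The RefSeq starts of Tnip3 and Tnfaip3 lie inside the longer GENCODE genes, chr6:65525313-65634040 on the plus strand and chr10:19000910-19015657 on the minus strand, so that the Tnip3 window and most of the printed Tnfaip3 window are within the gene. The other genes lie at chr11:54910785-54962917 (Tnip1) and chr2:34941750-34961772 (Traf1), both on the minus strand.

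By the edgeR quasi-likelihood test with Benjamini-Hochberg adjustment over all 15802 genes, at a threshold of 0.05, 4 of the 10 members were higher and 2 lower in double-negative macrophages than in monocytes, where 37.3% of all genes were higher and 28.1% lower. In single-positive macrophages 5 were higher and 4 lower, beside 39.1% and 30.7% of all genes, and in double-positive macrophages 4 were higher and 4 lower, beside 39.5% and 31.3%. Between macrophage populations, 5 members (Tnfsf9, Tnfsf12, Tnfsf13, Traf1 and Tnip3) were lower in single-positive than in double-negative macrophages, where 4.52% of all genes were higher and 5.53% lower. The same 5 members were lower and Tnip1 was higher in double-positive than in double-negative macrophages, beside 11.3% of all genes higher and 11.9% lower. Traf1 was lower in double-positive than in single-positive macrophages, beside 2.07% of all genes higher and 1.34% lower. Because the members were selected on levels in these libraries, nothing is read from these counts. The passing of Tnfsf12, Tnfsf13 and Tnip1 between macrophage populations was lost under 4 to 11 of 14 other settings, whereas that of Tnfsf9, Traf1 and Tnip3 against double-negative macrophages was kept under all 14.

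Per kilobase of exon, the order of the 8 members without exons shared on their strand differed between blood and gut. In monocytes Tnfrsf1b was the highest at 397 ± 10.8 CPM per kb, followed by Tnfrsf1a at 158 ± 14.7, Tnip1 at 28.1 ± 2.11 and Tnfaip3 at 5.20 ± 0.214. In all 3 macrophage populations Tnfaip3 was first, at 194 ± 36.0, 181 ± 32.5 and 155 ± 19.3 CPM per kb, and Tnfrsf1a, Tnfrsf1b and Tnip1 followed in that order. In double-positive macrophages the level of Tnfaip3 was within the spread of that of Tnfrsf1a, at 145 ± 17.8. Among the ligands, Tnfsf9, at 20.8 ± 4.02 CPM per kb, was above Tnfsf13b, at 7.68 ± 0.832, in double-negative macrophages, and the order was the other way in both CD4+ populations. Traf1 and Tnip3 were the lowest in every population.

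For the 3 members that differed most between macrophage populations, the genes with the most similar pattern were taken by Pearson's r of log2 CPM over the 12 macrophage libraries, among 9650 or 9651 other genes with a mean of at least 5 CPM. For Traf1 these were Sema4a (r = 0.992), Uck2 (r = 0.986) and Itgb7 (r = 0.982). Sema4a, which encodes a semaphorin, was at 104 ± 4.77, 45.5 ± 4.98 and 23.6 ± 3.77 CPM in double-negative, single-positive and double-positive macrophages, and Itgb7, the integrin β7 gene of gut homing, was at 103 ± 10.4, 36.9 ± 3.47 and 14.4 ± 2.61 CPM. Both were higher in monocytes, at 343 ± 19.9 and 685 ± 166 CPM, in which they differed from Traf1. For Tnip3 they were Tlr2 (r = 0.984), Nat8l (r = 0.976) and Ass1 (r = 0.975), and for Tnfsf9 they were Socs3 (r = 0.981), Egr2 (r = 0.978) and Il17ra (r = 0.978). Socs3, a feedback inhibitor of cytokine signalling, was at 993 ± 69.9, 578 ± 107 and 528 ± 30.1 CPM and at 99.3 ± 8.47 CPM in monocytes, and Egr2, an immediate early transcription factor, was at 196 ± 10.1, 106 ± 21.0 and 81.1 ± 11.7 CPM and 1.51 ± 0.392 CPM in monocytes. Among the members themselves, Traf1, Tnfsf9 and Tnip3 had r of 0.939 to 0.964 with each other. The 12 libraries fall into 3 populations, so these values mainly describe population levels, and relations within a population were not examined.

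The other genes of the pathway were taken as 83 symbols in 4 lists, of which 81 were in the table and 78 passed the filter on low counts. Against monocytes, 35, 36 and 31 of the 78 were higher in double-negative, single-positive and double-positive macrophages, or 44.9%, 46.2% and 39.7% beside 37.3%, 39.1% and 39.5% of all genes. Of the 78, 26, 26 and 25 were lower, or 33.3%, 33.3% and 32.1% beside 28.1%, 30.7% and 31.3%. The median log2 fold of the 78 was 0.27, 0.27 and 0.20, beside 0.08, 0.11 and 0.10 over all genes. Of the 11 ligands tested, 6, 8 and 7 rose and 2 fell in each population. The 30 adaptors and enzymes went the other way, with 8, 9 and 8 higher and 15, 14 and 12 lower.

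Tnf itself was among the ligands that rose. Its level was 7.40, 7.07 and 5.91 CPM in monocytes and 176, 161, 157 and 149.8 CPM in double-negative macrophages, a log2 fold of 4.56 ± 0.13 (adjusted p = 2.85e-14). In single-positive and double-positive macrophages it was 103, 107, 124 and 110.1 CPM and 124, 105, 118 and 93.1 CPM, below every double-negative library, with log2 folds of -0.54 ± 0.10 (adjusted p = 0.00233) and -0.55 ± 0.10 (adjusted p = 8.21e-04) against that population. These are RNA levels, and the study reported that TNF-α protein released in overnight culture was unchanged between the macrophage populations. Tnfsf18, encoding GITR ligand, had 0 counts in all monocyte libraries and a mean of 1.43, 2.99 and 2.54 CPM in the macrophage populations, at least 142-fold, 297-fold and 252-fold higher against a floor of 3 counts over the monocyte libraries. Tnfsf15, encoding TL1A, rose to 0.766, 1.77 and 1.33 CPM from 0.138 CPM. The 2 ligands that fell in every macrophage population were Tnfsf14, encoding LIGHT, at 17.7 ± 6.32 CPM in monocytes and 0.248 to 0.957 CPM in macrophages, and Ltb, encoding lymphotoxin β, at 3.37 ± 0.572 CPM in monocytes and 1.05 to 1.54 CPM in macrophages.

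Among the other receptors, Tnfrsf11a, the gene of RANK, rose from 26.6 ± 1.97 CPM in monocytes to 210.0 ± 14.7, 289 ± 26.0 and 263 ± 44.5 CPM, with log2 folds of 2.98 ± 0.14, 3.44 ± 0.14 and 3.31 ± 0.14. Tnfrsf17, the gene of BCMA, the plasma cell receptor of BAFF and APRIL, had 1 count over the 3 monocyte libraries and 1.39, 1.66 and 2.91 CPM in macrophages, a ratio of 413 in double-negative macrophages, with an exact 95% Poisson interval for counting error alone of 74.1 to 16309. It is 1 of 5 plasma cell genes whose summed level was 254 to 401, 234 to 383 and 202 to 375 CPM in the macrophage populations, nearly all of it Jchain, and 1.70 to 3.11 CPM in monocytes, and the part of plasma cells in it was not tested. Tnfrsf13c, the BAFF receptor gene, rose from 0.128 to between 1.15 and 2.20 CPM, beside 5 B cell genes that summed to 8.26 to 10.5 CPM in monocytes and 35.6 to 72.4 CPM in macrophages. The sort excluded cells stained for B220, and the part of B cell transcripts was not tested. Tnfrsf8, encoding CD30, fell from 15.9 ± 0.869 CPM to 0.224 to 0.268 CPM. The death receptor gene Fas fell from 19.5 ± 0.618 CPM to 3.49 ± 0.164, 2.45 ± 0.305 and 1.95 ± 0.383 CPM, and Tnfrsf21, encoding death receptor 6, from 399.6 ± 12.1 CPM to 167, 195 and 196 CPM.

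In the list of NF-kB components, genes of the IkB family were among those that rose most against monocytes. Nfkbiz, encoding the nuclear IkB protein IkBζ, was at 41.2, 47.6 and 52.9 CPM in monocytes and 2483, 2712, 2316 and 2506 CPM in double-negative macrophages, a log2 fold of 5.73 ± 0.14 (adjusted p = 4.46e-15). Nfkbia, encoding IkBα, rose from 109.9 ± 3.50 CPM to 720.1 ± 78.5, 443 ± 115 and 422 ± 78.6 CPM, and Nfkbie, encoding IkBε, had log2 folds of 2.39 ± 0.15, 2.29 ± 0.15 and 2.18 ± 0.14. Ikbkb, encoding the kinase IKKβ, fell, with log2 folds of -1.62 ± 0.08, -1.64 ± 0.08 and -1.69 ± 0.08, and Nfkb1, encoding the p50 subunit, fell by 0.85, 1.14 and 1.22 on the log2 scale. Among adaptors and enzymes, Traf4 rose from 0.190 CPM to between 1.23 and 1.59 CPM, Birc3, encoding the ubiquitin ligase cIAP2, had log2 folds of 1.20 ± 0.11, 1.05 ± 0.11 and 0.85 ± 0.11, and the necroptosis kinase gene Ripk3 rose from 25.4 ± 5.35 to 44.4, 50.01 and 52.3 CPM. Map3k7, encoding the kinase TAK1, its partner gene Tab1, and Traf6 fell in all 3 populations, with log2 folds between -0.92 and -0.76. The dissociation genes given beside Tnfaip3 moved with each of these comparisons, and their part in them was not tested.

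Between macrophage populations, 3 of the 78 pathway genes were higher and 8 lower in single-positive than in double-negative macrophages, or 3.85% and 10.3%, beside the 4.52% and 5.53% of all genes given above. In double-positive against double-negative macrophages 5 were higher and 17 lower, or 6.41% and 21.8%, beside 11.3% and 11.9%. By DESeq2, 9 genes of the lists were higher and 18 lower in this comparison, beside 2258 and 1958 of all 19456 genes. In double-positive against single-positive macrophages 2 were lower, or 2.56% beside 1.34%, and 0 were higher by edgeR and by DESeq2, with 1 at an unadjusted p under 0.05. The median log2 fold of the 78 genes in these comparisons was -0.02, -0.06 and -0.06, and -0.00291, -0.00475 and -0.00191 over all genes. The first 2 comparisons share the double-negative libraries. Of the named genes that passed, 5 of 10 in the first and 11 of 22 in the second comparison passed under all 14 other settings.

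**Figure D4:**
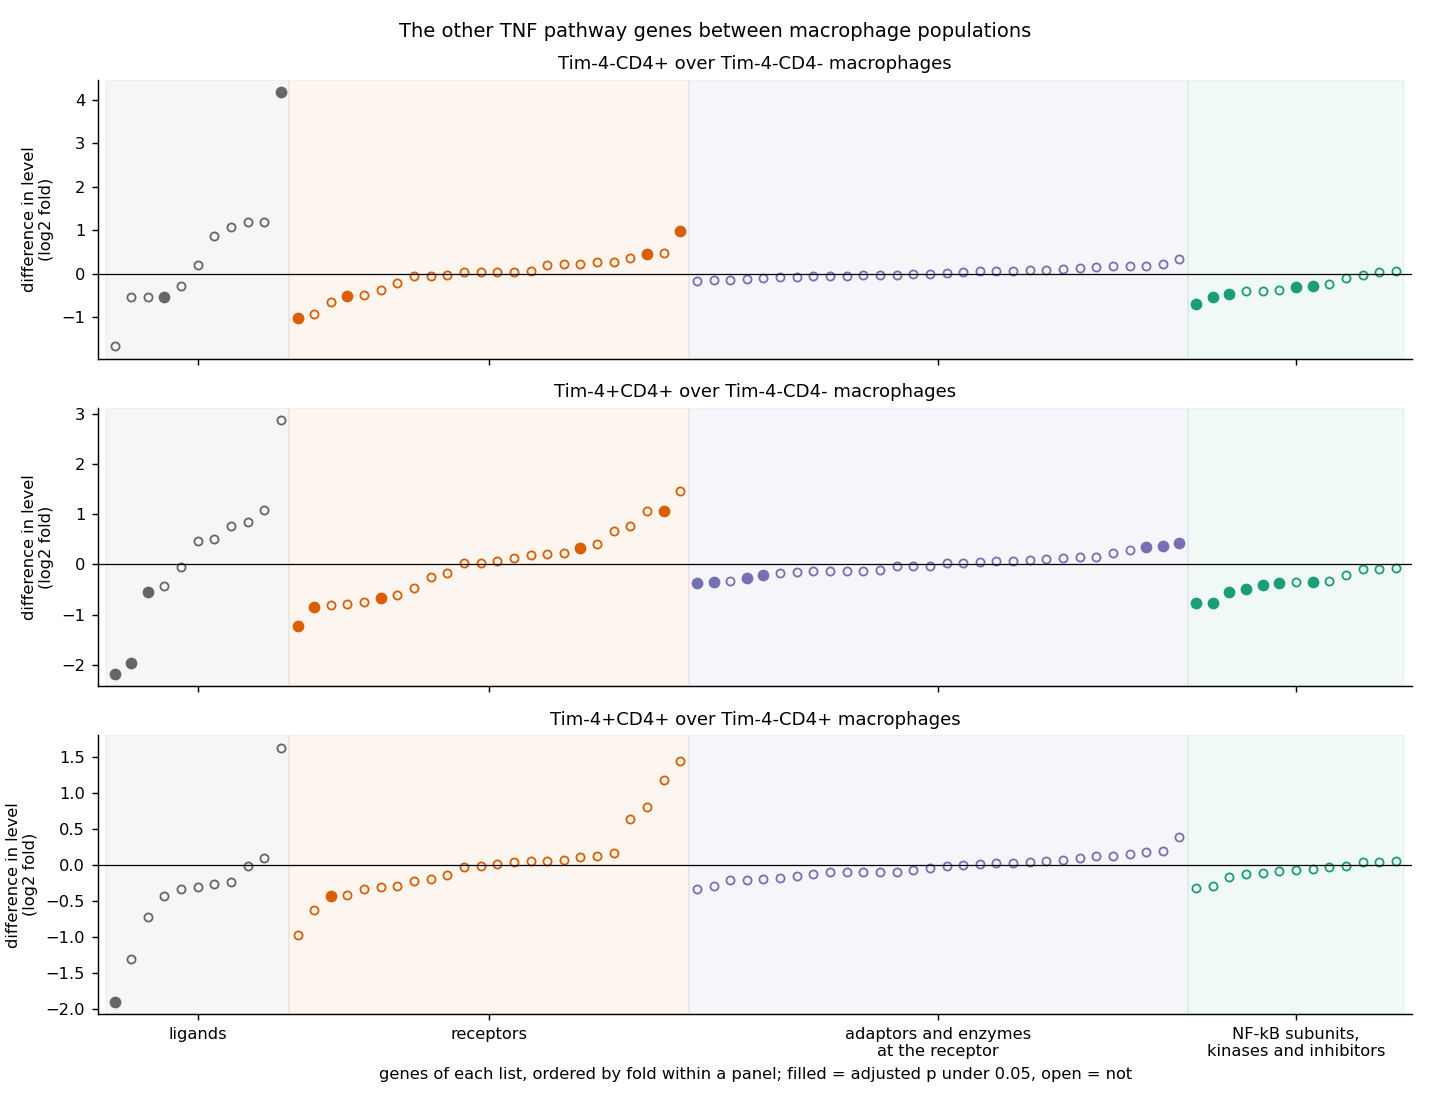
Difference in level (y axis, log2 fold) of the 78 tested genes of the 4 pathway lists (x axis, ordered by fold within each list and panel) in the 3 comparisons of macrophage populations. Filled points passed an adjusted p of 0.05 by edgeR and open points did not. In the NF-kB list, 5 and 7 of 13 genes lie below 0 as filled points in the upper and middle panels, beside 5.53% and 11.9% of all genes.

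The list of 13 NF-kB components held 5 genes that were lower in single-positive and 7 that were lower in double-positive than in double-negative macrophages. These are 38.5% and 53.8% of the list, beside 5.53% and 11.9% of all genes. The list was chosen with earlier results of these data known, so the counts are a description. No gene of this list was higher in either comparison by edgeR or DESeq2, also at an unadjusted p under 0.05 by edgeR. Its median log2 fold was -0.32 and -0.36. Nfkbia was at 750.1, 807, 622 and 701 CPM in double-negative, 353, 382, 609.9 and 426 CPM in single-positive and 449.8, 379, 518 and 340.1 CPM in double-positive macrophages, every double-negative library above all others, and its log2 fold was -0.70 ± 0.16 (adjusted p = 0.00807) and -0.77 ± 0.16 (adjusted p = 0.00178). Nfkbiz fell to 1755, 1747, 1924 and 1772 CPM in single-positive and 1213, 1609, 1663 and 1426 CPM in double-positive macrophages, with log2 folds of -0.48 ± 0.10 and -0.76 ± 0.10 (adjusted p = 0.00604 and 4.31e-05). Of the subunits, Rel, encoding c-Rel, was at 419 ± 36.6, 354 ± 28.0 and 286 ± 60.7 CPM, and its log2 fold in double-positive over double-negative macrophages was -0.55 ± 0.14 (adjusted p = 0.00709). Rela, Nfkb1, Nfkb2 and the inhibitor gene Nfkbib were the others that passed in that comparison, with log2 folds of -0.34 ± 0.09, -0.37 ± 0.08, -0.40 ± 0.12 and -0.49 ± 0.14, Nfkb2 passing under 10 and Nfkbib under 12 of 14 other settings. Rela, Nfkb1 and Nfkbib also passed in single-positive macrophages, with -0.32 ± 0.09, -0.29 ± 0.08 and -0.53 ± 0.14, but Rela and Nfkb1 did so under 5 and Nfkbib under 10 of 14 other settings. The list held both subunits and their inhibitors. Of the 10 dissociation genes, 6 also had their highest macrophage mean in double-negative macrophages, 2 in single-positive and 2 in double-positive macrophages. Among the first 6, Egr1 was at 3499 to 4213, 2802 to 3972 and 1894 to 2951 CPM in the order of the populations above, and Atf3 at 1917 to 2439, 1749 to 2126 and 1402 to 1640 CPM. The summed ranges of the list, given beside Tnfaip3, overlapped between the populations, and its part in the differences of NF-kB genes, Tnf, Tnfsf9 and Traf1 was not tested.

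Of the receptors, Tnfrsf12a, the gene of Fn14 and thus of the receptor for TWEAK, was at 7.94, 6.72, 6.38 and 6.76 CPM in double-negative, 3.28, 2.96, 4.14 and 3.25 CPM in single-positive and 3.49, 2.47, 2.80 and 3.15 CPM in double-positive macrophages. Its log2 fold was -1.03 ± 0.16 (adjusted p = 6.15e-04) and -1.22 ± 0.16 (adjusted p = 4.04e-05), so that it fell in both CD4+ populations. The level of its ligand gene Tnfsf12 was also lower there, with the limit of shared exons given above. That difference in Tnfsf12 lost passing under 10 of 14 other settings in single-positive and 4 of 14 in double-positive macrophages. Tnfrsf13b, the gene of TACI, was at 70.6, 54.4, 64.5 and 63.2, 55.2, 55.4, 45.5 and 59.6 and 44.1, 43.1, 34.4 and 38.5 CPM in the 3 populations, with a log2 fold of -0.66 ± 0.10 for double-positive over double-negative (adjusted p = 1.96e-04) and of -0.43 ± 0.10 over single-positive macrophages (adjusted p = 0.0277), the latter passing under 7 of 14 other settings. Tnfrsf11a went the other way, with 0.46 ± 0.11 for single-positive (adjusted p = 0.0139) and 0.33 ± 0.11 for double-positive (adjusted p = 0.0447) over double-negative macrophages, the latter under 7 of 14 other settings. Fas fell, with -0.51 ± 0.15 (adjusted p = 0.0357, passing under 3 of 14 other settings) and -0.84 ± 0.15 (adjusted p = 4.83e-04). Tnfrsf26 had 0.98 ± 0.30 in single-positive macrophages (adjusted p = 0.0489, under 5 of 14 other settings), and Tnfrsf17 had 1.07 ± 0.30 in double-positive macrophages (adjusted p = 0.0147). The plasma cell sums given above overlapped between the populations, but they are nearly all Jchain and cannot show the share of Tnfrsf17. The part of plasma cells in the Tnfrsf17 difference was not tested.

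**Figure D5:**
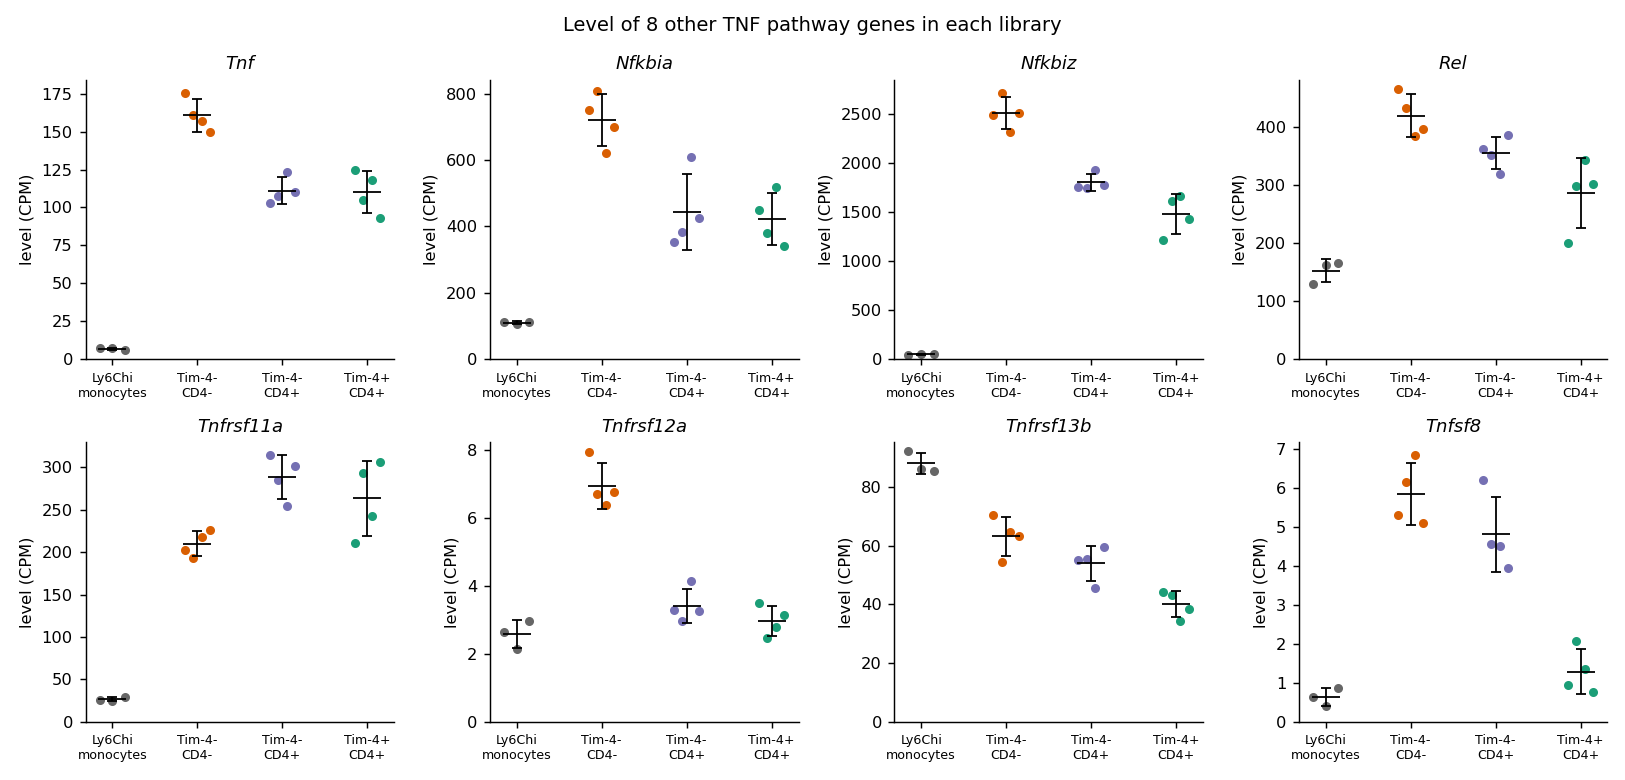
Level of 8 other TNF pathway genes in CPM (y axis, linear, from 0, a scale of its own in each panel) in each library (points), by population, with black bars for the mean ± SD over 3 monocyte or 4 macrophage libraries. Tnf, Nfkbia, Nfkbiz and Tnfrsf12a were highest in the Tim-4-CD4- libraries, Tnfrsf11a was lowest in monocytes, and Tnfsf8 was at 2.07 CPM or less in Tim-4+CD4+ macrophages.

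Of the other ligands, Tnfsf8, encoding CD30 ligand, separated double-positive macrophages from the other macrophage populations. It was at 5.31, 6.15, 6.86 and 5.10 CPM in double-negative, 6.21, 4.58, 4.53 and 3.96 CPM in single-positive and 0.954, 2.07, 1.37 and 0.763 CPM in double-positive macrophages, without overlap of the last with the other macrophages. The monocyte libraries, at 0.638, 0.399 and 0.855 CPM, overlapped the double-positive macrophages. The log2 fold for double-positive was -2.17 ± 0.29 over double-negative (adjusted p = 3.71e-05) and -1.89 ± 0.29 over single-positive macrophages (adjusted p = 6.76e-04), and it passed under all 14 other settings in both. Tnfsf14 fell in double-positive against double-negative macrophages, at 0.248 and 0.957 CPM (log2 fold -1.97 ± 0.53, adjusted p = 0.0127). Cd40lg was named after its values were seen, because it was the 1 ligand that passed as higher between macrophage populations by edgeR. By DESeq2, 2 ligands were higher in single-positive and 2 in double-positive than in double-negative macrophages. Cd40lg had 59, 15, 56 and 46 counts in single-positive and 0, 7, 0 and 0 in double-negative macrophages (adjusted p = 0.0170 by edgeR). The double-positive libraries held 31, 15, 32 and 4 counts. The gene encodes CD40 ligand of T helper cells. The summed level of 7 T cell genes was 7.11 to 10.98 CPM in single-positive, 2.64 to 6.10 CPM in double-negative and 5.67 to 8.63 CPM in double-positive macrophages. The sort excluded cells stained for TCRβ, and the part of T cell transcripts was not tested.

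In the list of 30 adaptors and enzymes, 0 genes passed between single-positive and double-negative macrophages by edgeR, where 2 were higher and 0 lower at an unadjusted p under 0.05, and 1 passed by DESeq2. In double-positive against double-negative macrophages 3 of the 30 were higher and 4 lower, or 10% and 13.3%, near the 11.3% and 11.9% of all genes. The 3 that were higher were the necroptosis effector gene Mlkl, Sharpin, a subunit of the linear ubiquitin ligase, and Tnip2, encoding ABIN-2. Their log2 folds were 0.37 ± 0.12, 0.43 ± 0.14 and 0.35 ± 0.10 (adjusted p = 0.0370, 0.0371 and 0.0181). The 4 that fell were Traf3, Birc3, Map3k14, encoding the NF-kB-inducing kinase, and Tax1bp1, an adaptor of A20, with -0.37 ± 0.12, -0.35 ± 0.10, -0.22 ± 0.07 and -0.27 ± 0.09 (adjusted p = 0.0305, 0.0149, 0.0392 and 0.0480). Of these 7 genes, Map3k14 passed under 4, Tax1bp1 under 2, Sharpin under 7, Mlkl and Traf3 under 9, Tnip2 under 12 and Birc3 under 13 of 14 other settings. All 3 ABIN genes were thus measured, with Tnip1 and Tnip2 at their highest mean in double-positive and Tnip3 in double-negative macrophages.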

How the data were processed

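Stranded TruSeq mRNA libraries had been sequenced as paired 65-base reads, trimmed with Trimmomatic 0.36, aligned to GRCm38.p4 with STAR 2.4.2 and counted per gene of GENCODE vM11 with HTSeq 0.6.1p1. The authors deposited raw counts for 19456 genes with a row total of at least 16, beside 15 columns divided by DESeq2 size factors that were not used, and 1 library was assigned to each count column by its sample description. Replicates are numbered by sample title; titles and descriptions number the Tim-4-CD4+ libraries differently. Of the gene identifiers, 19421 had a symbol in GENCODE M21, which gave coordinates, all on GRCm38, and exon lengths.

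Genes were filtered with filterByExpr and tested with the edgeR 4.0.16 quasi-likelihood test (TMM scaling, population as the sole factor, all 15 libraries) in R 4.3.3, with Benjamini-Hochberg adjustment over 15802 genes. The SE is the absolute log2 fold divided by the square root of F. The fit was tested on simulated data. DESeq2 1.42.0, other scaling, no filter, fits of 2 populations, replicate blocks and leaving out each library were the alternatives. The lowest chi-square per gene between replicates of a population was 24.1, so such replicates differed by more than counting noise. Libraries of different populations were not compared in this way.

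The 10 members and all gene lists were chosen with earlier results of these data known. Beside the members, genes were named by rule: pathway genes that passed between macrophage populations with a mean of at least 1 CPM, the 3 genes of each list with the largest mean log2 fold in each direction against monocytes among those that passed in all 3 populations, and the 3 genes most similar to Traf1, Tnip3 and Tnfsf9. Marker lists were read as summed CPM without a test. Lists of mast cell, eosinophil, neutrophil, natural killer and innate lymphoid cell, epithelial, mesenchymal, endothelial, neuronal and macrophage genes were also summed (closing section).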

Additional observations from a re-analysis of the deposited data

Results flagged for a closer look

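In groups of 4 libraries, a library was marked where its gap to the nearest other, divided by the range of the group, exceeded Dixon's critical value at the 95% level. Of 138 groups, 3 macrophage populations for each of 46 genes, 9 were marked, where chance marks about 1 in 20, or 6.9.

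Among the members, Tnfrsf1a stood out in double-positive replicate 1 (444 CPM, the others 349 to 353), Traf1 in single-positive replicate 3 (8.86 CPM, the others 6.07 to 6.45) and Tnip3 in single-positive replicate 1 (1.17 CPM, the others 0.217 to 0.365). Among the other pathway genes, the library was high for Nfkbib in double-negative replicate 2 (107 CPM, the others 91.2 to 93.7), Nfkbiz in single-positive replicate 3 (1924 CPM, the others 1747 to 1772), Mlkl in double-positive replicate 1 (31.7 CPM, the others 27.7 to 28.2) and Sharpin in double-negative replicate 1 (56.5 CPM, the others 52.5 to 52.6), and low in double-negative replicate 4 for Tnfsf14 (0.802 CPM, the others 0.989 to 1.02) and Map3k14 (84.4 CPM, the others 98.2 to 99.4).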

How the results depend on the processing

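Counts of pathway genes and of members that passed against monocytes stayed within 1.5 times of those reported under every alternative. Between single-positive and double-negative macrophages, the 11 pathway genes became 7 without the filter on low counts and 6 to 14 when 1 library was left out, with 6 without double-negative replicate 2 or 3 or single-positive replicate 2 or 4 and 7 without double-negative replicate 1. Over all 14 alternatives this count of pathway genes ran from 6 to 16, with 5 higher and 11 lower by DESeq2. The 5 members became 3 to 5, with 3 without double-negative replicate 1 or 2 or single-positive replicate 4. Between double-positive and double-negative macrophages, the 22 pathway genes became 14 to 22 when 1 library was left out, the fewest without double-positive replicate 2. The 6 members became 3 to 5 when 1 library was left out, with 3 without double-negative replicate 1 or double-positive replicate 4. Over all 14 alternatives these counts ran from 14 to 27 and from 3 to 6, with 9 pathway genes higher and 18 lower by DESeq2. Between double-positive and single-positive macrophages, the 2 pathway genes became 1 when only these 2 populations were fitted and 1 to 2 when 1 library was left out, Tnfrsf13b being lost without single-positive replicate 1, 2 or 4 or double-positive replicate 3 or 4. The 1 member became 1 to 2, Tnip3 also passing without double-positive replicate 3. Over all genes, DESeq2 called 917 in this comparison against 539 by edgeR. Without single-positive replicate 1, the log2 fold of Tnip3 was -4.68 against double-negative macrophages and -3.61 against monocytes. Between macrophage populations, the folds of named pathway genes kept their side of the threshold in 1383 recomputed values, lost passing in 105 and gained it in 24. Their folds against monocytes, Cd40lg and the genes similar to members were not recomputed one by one. The causes were not tested.

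Whether same-numbered libraries came from the same mice is not settled by their values. Deviations of same-numbered libraries correlated above 0.1 in 2 of 12 pairs by title and in 4 of 12 by description. By description, the pairs of number 4 were at 0.161, 0.128 and 0.138. With a replicate block by description, 1 pathway gene passed between the CD4+ populations. With the block by title or description, 8 and 12 passed between single-positive and double-negative, and 19 and 22 between double-positive and double-negative macrophages. Depth limits Tnip3 and Tnfsf13 in macrophages most, at 2 to 132 counts per library in the populations where they were low.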

Other observations

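The remaining marker lists gave the following summed levels. Macrophage genes summed to 6849 to 7337, 8805 to 9860 and 9339 to 9812 CPM in double-negative, single-positive and double-positive macrophages and 3805 to 4146 CPM in monocytes. In the same order, neutrophil genes summed to 145 to 186, 162 to 194, 178 to 200.5 and 446 to 463 CPM, eosinophil genes to 5.66 to 9.87, 9.28 to 11.2, 12.01 to 17.9 and 0.167 to 0.687 CPM, and mast cell genes to 5.12 to 13.99, 2.48 to 3.24, 1.15 to 2.43 and 0.0283 to 0.0681 CPM. Natural killer and innate lymphoid cell genes summed to 8.24 to 10.2, 6.37 to 10.1, 3.78 to 5.29 and 0.334 to 0.418 CPM, and epithelial genes to 8.91 to 26.7, 13.9 to 16.99, 13.7 to 21.1 and 0.350 to 1.65 CPM. Mesenchymal genes summed to 59.6 to 90.1, 71.5 to 93.2, 98.4 to 138 and 0.0186 to 0.0283 CPM, endothelial genes to 110.2 to 128, 177 to 218, 288 to 349 and 11.9 to 21.1 CPM, and enteric neuron and glia genes to 1.19 to 1.60, 0.971 to 1.86, 5.15 to 7.10 and 0.0354 to 0.149 CPM. Most of the neutrophil sum was Csf3r and most of the endothelial sum Pecam1, both of which are found in other myeloid cells. Ly6g, Epx and Fcer1a, defining genes of neutrophils, eosinophils and mast cells, were not found by symbol among the 19456 genes counted, so the sums lack them.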
